A study of Mus musculus with 2 samples.

Results

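The killer lectin-like receptors described here are 7 genes, Klrd1, Klrc1, Klrc2, Klrk1, Klre1, Klrb1c and Klrg1, read together with Nkg7, a gene of the cytotoxic granule that is not a lectin. They were taken by symbol and make up 8 of the 32285 genes in the count tables. Each was followed in 4 groups of barcodes gated on single genes that are not members: natural killer (NK) barcodes with Ncr1 and without Cd3e, CD8 T barcodes with Cd3e and Cd8b1 that held either no UMI of granzyme B (Gzmb) or at least 3, and CD4 T barcodes with Cd3e and Cd4 and without Cd8b1. A UMI is a molecular tag that stands for 1 captured RNA molecule.

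The study compared mice that carry the autoimmunity-linked variant of the phosphatase PEP, encoded by Ptpn22 (PEP-619WW, made by CRISPR/Cas9 on C57BL/6), with PEP-WT mice. Both groups had been infected with the persistent virus LCMV clone 13, and on day 8 the splenocytes of 4 to 5 age- and sex-matched mice per genotype were pooled and sorted for live CD45+ cells before droplet sequencing. The ages of these mice are not in the labels, and the labels' sample fields name liver, tumor infiltrating cells and a human T cell line where the design text names spleen. Each genotype was deposited in 2 runs, whose relation is not stated and whose tissue the labels do not settle run by run, with 1 library per genotype and run.

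Killer lectin-like receptors are membrane proteins that set the threshold at which NK cells and effector T cells kill or spare a target. CD94, encoded by Klrd1, pairs with NKG2A (Klrc1), which inhibits, or with NKG2C (Klrc2), which activates, and both pairs read the non-classical MHC molecule Qa-1. NKG2D (Klrk1) binds stress-induced ligands on infected or transformed cells and signals through the adaptors Hcst and Tyrobp. The product of Klre1 pairs with those of Klri1 or Klri2, Klrb1c encodes the NK1.1 antigen of C57BL/6 mice, and KLRG1 is an inhibitory receptor for cadherins that marks terminally differentiated effector cells. Nkg7 acts in the release of cytotoxic granules.

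The family sits mostly in the NK gene complex of chromosome 6. In GRCm38 (GENCODE M21), 5 of the members, Klre1, Klrd1, Klrk1, Klrc2 and Klrc1, lie within 101 kb at chr6:129577905-129678973, Klrb1c lies at chr6:128778485-128789215 and Klrg1 at chr6:122270596-122282882. Nkg7 is on chromosome 7, at chr7:43437073-43438249. Because members of the cluster differ in level from gate to gate, the sequence upstream of their starts is given for the 6 members found in the RefSeq promoter table (GRCm38.p6), as the 250 bases before the first listed start, 5′ to 3′ on the gene's strand. RefSeq and GENCODE starts differ: the windows of Klre1 and Klrb1c lie wholly inside the GENCODE gene given above, those of Klrc2 and Nkg7 in part, and those of Klrk1 and Klrc1 outside it. Capitals mark the core of the RUNX motif, TGTGGT or its reverse complement ACCACA. Both strands were searched, and in these windows no RUNX core overlapped the T-box letters searched beside it.
Klre1, chr6:129577963-129578212, plus strand: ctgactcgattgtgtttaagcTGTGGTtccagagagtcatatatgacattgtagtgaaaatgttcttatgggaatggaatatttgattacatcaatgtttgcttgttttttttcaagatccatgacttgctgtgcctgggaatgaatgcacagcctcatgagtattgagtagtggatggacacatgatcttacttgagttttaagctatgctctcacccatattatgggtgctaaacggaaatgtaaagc
Klrk1, chr6:129623865-129624114, minus strand: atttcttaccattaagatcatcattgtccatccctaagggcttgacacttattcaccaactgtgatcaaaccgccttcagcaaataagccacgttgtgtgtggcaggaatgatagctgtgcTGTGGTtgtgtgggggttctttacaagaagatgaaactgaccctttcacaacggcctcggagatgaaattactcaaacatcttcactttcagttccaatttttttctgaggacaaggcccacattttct
Klrc2, chr6:129660597-129660846, minus strand: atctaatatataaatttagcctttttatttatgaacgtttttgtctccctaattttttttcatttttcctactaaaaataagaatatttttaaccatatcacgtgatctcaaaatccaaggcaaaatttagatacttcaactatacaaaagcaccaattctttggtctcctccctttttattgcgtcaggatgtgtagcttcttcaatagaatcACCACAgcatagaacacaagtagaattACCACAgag
Klrc1, chr6:129678974-129679223, minus strand: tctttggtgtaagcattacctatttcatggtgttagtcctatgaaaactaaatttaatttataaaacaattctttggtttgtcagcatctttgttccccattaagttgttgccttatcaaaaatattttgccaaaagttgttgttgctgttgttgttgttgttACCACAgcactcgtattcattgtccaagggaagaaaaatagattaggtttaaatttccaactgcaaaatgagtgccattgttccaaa
Klrb1c, chr6:128788642-128788891, minus strand: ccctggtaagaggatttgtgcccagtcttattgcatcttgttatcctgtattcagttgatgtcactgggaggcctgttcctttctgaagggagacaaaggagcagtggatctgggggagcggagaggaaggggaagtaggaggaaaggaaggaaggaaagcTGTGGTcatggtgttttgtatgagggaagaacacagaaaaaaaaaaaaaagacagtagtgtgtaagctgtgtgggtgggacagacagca
Nkg7, chr7:43436888-43437137, plus strand: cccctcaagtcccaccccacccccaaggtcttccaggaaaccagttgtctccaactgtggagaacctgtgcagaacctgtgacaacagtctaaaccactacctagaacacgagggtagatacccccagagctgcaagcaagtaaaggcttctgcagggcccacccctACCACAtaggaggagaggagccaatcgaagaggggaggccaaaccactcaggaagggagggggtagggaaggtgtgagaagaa

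The RUNX core was present in at least 1 listed promoter of all 6 members, against 14.0% of the 32851 promoters in the table. The T-box core, AGGTGT or ACACCT, was found in 1 member, Nkg7, against 11.8% of all promoters. Members are counted by gene over all their listed promoters and the shares by promoter, so these values are not like for like. Both motifs were chosen with these sequences in view, and a match of 6 letters describes the sequence without showing a bound factor. A second listed start of Klre1 had no RUNX core upstream.

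In run 1 the libraries held 14821 PEP-WT and 8576 PEP-619WW barcodes, with medians of 2832 and 3293 UMIs. The NK gate took 77 and 37 of them, the CD8 T gate without Gzmb 487 and 127, the CD8 T gate with at least 3 Gzmb UMIs 791 and 727, and the CD4 T gate 304 and 216. Run 2, with 9539 and 11029 barcodes and medians of 1709 and 1477 genes, is the pair of libraries whose barcode numbers appear in the study's methods. It stood apart: its PEP-WT library held 2 to 14 barcodes in each of these gates, and 431 of its barcodes carried at least 3 of 6 melanocytic genes, against 44 in the PEP-619WW library and 0 in both libraries of run 1. Genotypes were therefore compared in run 1, which those numbers do not describe, and run 2 was used for the levels of its PEP-619WW library, with 466, 245, 92 and 387 barcodes in the 4 gates. Any pair of libraries shared 19 to 49 barcodes, at most 0.455% of the smaller one. The Ptpn22 change is a substitution that a 3′ tag count does not read, so no value here checks the genotype.

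With 1 library per genotype no test was possible, and each value is given with a 95% interval. The interval is exact Poisson for a level, exact conditional binomial for a fold and Clopper-Pearson for a share. It covers counting error only and not the spread between mice, since mice were pooled. Intervals of levels, folds and shares of UMIs also count each UMI as independent, so they leave out the spread between barcodes. Levels are UMIs per 1000000 UMIs of the gate (CPM). Gene lengths do not enter a 3′ tag count, and levels are compared here across gates within a gene. Members are called higher or lower when they passed 1.5-fold with at least 50 UMIs over the 2 libraries, and each count is read against the share of all genes that passed the same rule.

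NK barcodes carried the members at their highest levels in every run 1 library. Their label was checked on 8 NK markers, with summed levels of 15549 CPM in PEP-WT and 15892 CPM in PEP-619WW, most of it Gzma (11441 and 11816 CPM). None was at 0, which also held in the T gates and does not set NK barcodes apart. In CD8 T barcodes with at least 3 Gzmb UMIs the sums were 1954 and 1141 CPM. Another 5 T cell genes summed to 759 and 598 CPM in NK barcodes, against 3851 and 3638 CPM in those CD8 T barcodes. After every barcode was thinned to 2000 UMIs, at least 1 of the 7 receptors was seen in 91.4% (95% interval 82.3 to 96.8) of 70 PEP-WT and in 100% (88.4 to 100) of 30 PEP-619WW NK barcodes, and at least 3 receptors in 74.3% and 83.3%. B cell barcodes, a class that should lack the receptors, held a receptor UMI in 2.61% and 2.80% at the same depth, and whether these came from free RNA or from doublets was not tested. In PEP-WT B cell barcodes Klrc1 was seen in 12.1% (4.99 to 23.3, 7 barcodes) of those with Klrd1 and in 0.229% of the others. In PEP-619WW B cell barcodes these shares were 3.45% (0.420 to 11.9, 2 barcodes) and 0.226%. In run 2 PEP-619WW at least 1 receptor was seen in 95.4% of NK and 7.19% of B cell barcodes at this depth.

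All 8 members were higher in NK than in CD8 T barcodes with at least 3 Gzmb UMIs in both run 1 libraries, with a median log2 ratio of 2.35 in PEP-WT and 2.59 in PEP-619WW. For all genes tested the medians were 0.01 and 0.05, and 19.5% of 9026 genes in PEP-WT and 26.5% of 9269 in PEP-619WW were past 1.5-fold in that direction (19.2% and 21.6% in the other). The gap was wide for Klrb1c, at 410 against 8.82 CPM in PEP-WT and 416 against 12.7 CPM in PEP-619WW. Nkg7 stood closer in the 2 gates, at 2449 against 1530 CPM and at 1961 against 1231 CPM. Run 2 PEP-619WW barcodes gave 6 of 8 members past 1.5-fold, beside 18.6% of 6941 genes (12.4% were lower), with Klrg1 (85.2 against 78.0 CPM) and Nkg7 (1636 against 1311 CPM) the members that did not pass. Of the 6, Klrb1c (7 UMIs), Klrc2 (26) and Klrc1 (34) had few UMIs in the CD8 T gate. They passed the minimum through the NK gate, so the run 2 count is a description only.

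**Figure D1:**
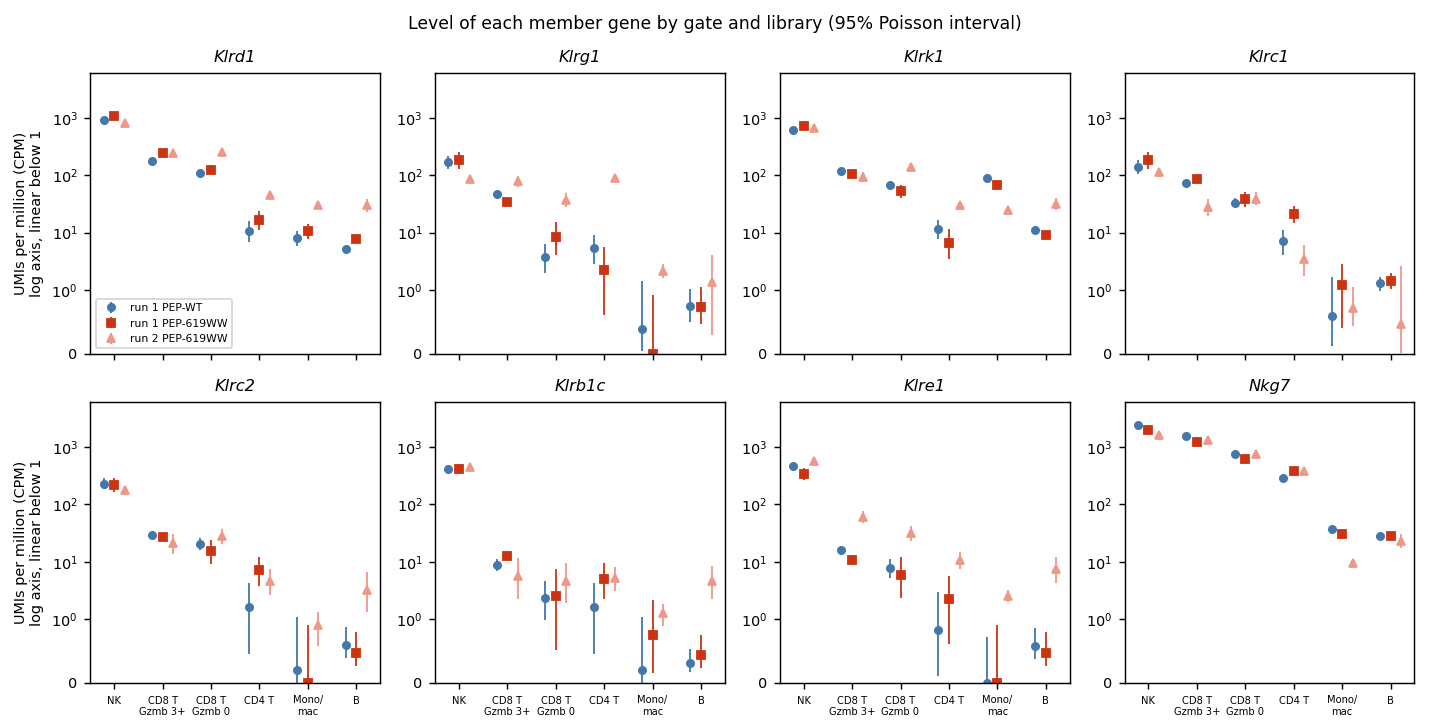
Level of each member (CPM, log axis that is linear below 1) in 6 gates, with points for the run 1 PEP-WT, run 1 PEP-619WW and run 2 PEP-619WW libraries and bars for 95% Poisson intervals. NK barcodes lie highest in every panel for run 1, and only Klrk1 has monocyte and macrophage barcodes (88.5 and 67.2 CPM in run 1) near the level of CD8 T barcodes without Gzmb (69.0 and 53.1 CPM).

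Between genotypes, 0 of the 8 members passed 1.5-fold in NK barcodes in either direction. Over all 1605 genes with at least 50 UMIs in the gate, 8.16% were higher and 13.4% lower in PEP-619WW. The median log2 ratio of the members was 0.07, beside -0.12 for all genes tested. At 77 and 37 barcodes the fold of a member with few UMIs was known only to within a wide interval, and no difference under that width was detectable at this depth.

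Of the CD94 group, Klrd1 stood at 909 CPM (326 UMIs) in PEP-WT and 1081 CPM (226 UMIs) in PEP-619WW NK barcodes, a fold of 1.19 (0.999 to 1.41). Its inhibitory partner Klrc1 was counted at 139 CPM (50 UMIs) and 182 CPM (38 UMIs), a fold of 1.30 (0.832 to 2.03). For the activating partner Klrc2 the levels were 229 CPM (82 UMIs) and 220 CPM (46 UMIs), a fold of 0.962 (0.656 to 1.40). The intervals of all 3 included 1.

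The activating receptor gene Klrk1 gave 608 CPM (218 UMIs) and 713 CPM (149 UMIs), a fold of 1.17 (0.945 to 1.45). Klrb1c, the NK1.1 gene, was read at 410 CPM (147 UMIs) and 416 CPM (87 UMIs), a fold of 1.02 (0.770 to 1.33). Klrg1, whose product marks mature NK cells, stood at 167 CPM (60 UMIs) and 182 CPM (38 UMIs), a fold of 1.09 (0.704 to 1.66). None of these 3 genes departed from 1 beyond counting error. Of the 90-base words in the last 500 bases of Klrb1c transcripts 11.4% also occur in Klrb1a or in a neighbouring gene model, so part of its reads may not have been counted.

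Klre1 and Nkg7 were the 2 members whose intervals lay below 1 in PEP-619WW NK barcodes. Klre1 was read at 469 CPM (168 UMIs) in PEP-WT and 344 CPM (72 UMIs) in PEP-619WW, a fold of 0.735 (0.550 to 0.974). Over 10 alternatives of run 1 the Klre1 fold ran from 0.593 to 0.848. In run 2 its direction was turned, with a log2 ratio of 2.40 against 4 Klre1 UMIs in 2 PEP-WT barcodes. Nkg7 was read at 2449 CPM (878 UMIs) and 1961 CPM (410 UMIs), a fold of 0.801 (0.711 to 0.902). The 3 barcodes with most Klre1 UMIs held 20.8% of them in PEP-WT and 29.2% in PEP-619WW. For Nkg7 the top 3 held 11.8% and 21.2%. Both intervals leave this spread between barcodes out. RNA of other cells moved with genotype in this gate: the summed level of 3 erythroid genes was 7531 CPM in PEP-WT and 182 CPM in PEP-619WW, that of 3 neutrophil genes 1107 and 13347 CPM, and that of 4 B cell genes 575 and 292 CPM. Plasma cell genes summed to 1303 and 2244 CPM and the myeloid list to 1403 and 1976 CPM, with Lyz2 at 318 and 1210 CPM. Without barcodes that carried B cell or myeloid UMIs, which left 38 PEP-WT and 17 PEP-619WW barcodes, the Nkg7 fold was 0.937. That removal took out barcodes with Cd79a, Lyz2, Csf1r, S100a8 or Jchain and put no condition on erythroid genes. Among barcodes with no UMI of 5 other T cell genes (21 and 5 left) the Nkg7 fold was 0.317.

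CD8 T barcodes with at least 3 Gzmb UMIs, which held most of the CD8 T counts, showed 0 of 8 members past 1.5-fold in either direction. Among all 10289 genes tested 4.75% were higher and 4.52% lower in PEP-619WW, and the median log2 ratio was -0.13 for the members and 0.00 for all genes. Within the fold, the members split: Klrd1, Klrc1 and Klrb1c had intervals above 1, while Klrg1, Klrk1, Klre1 and Nkg7 had intervals below 1.

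Klrd1 was at 180 CPM (1635 UMIs, seen in 541 of 791 barcodes) in PEP-WT and 245 CPM (2528 UMIs, in 605 of 727) in PEP-619WW, a fold of 1.36 (1.28 to 1.45). Over the 12 alternatives computed in run 1 its fold stayed above 1, from 1.25 when thinned to 1.75 without barcodes carrying B cell or myeloid UMIs. Not all of these can move the fold: requiring at least 500 genes left all 791 and 727 barcodes. Klrc1, the gene of its inhibitory partner, was at 73.7 CPM (669 UMIs) and 87.3 CPM (901 UMIs), a fold of 1.18 (1.07 to 1.31). Klrc2, the activating partner's gene, was at 28.8 CPM (261 UMIs) and 27.0 CPM (279 UMIs), a fold of 0.940 (0.791 to 1.12) whose interval included 1.

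Klrk1 was counted at 117 CPM (1066 UMIs) and 105 CPM (1084 UMIs), a fold of 0.894 (0.821 to 0.974) that turned to 1.09 without barcodes carrying B cell or myeloid UMIs. Klrb1c was low, at 8.82 CPM (80 UMIs) and 12.7 CPM (131 UMIs). Its fold of 1.44 (1.08 to 1.93) became 0.842 after thinning. Neither direction held over all alternatives.

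Klrg1, whose product marks terminal effector T cells, was lower in PEP-619WW, at 46.5 CPM (422 UMIs) against 33.9 CPM (350 UMIs), a fold of 0.729 (0.631 to 0.842). It stayed lower in the 12 alternatives of run 1, not all of which can move the fold. Klre1 was at 15.8 CPM (143 UMIs) and 10.8 CPM (112 UMIs), a fold of 0.688 (0.533 to 0.888). Nkg7 was at 1530 CPM (13884 UMIs) and 1231 CPM (12705 UMIs), a fold of 0.804 (0.785 to 0.824), with 0.764 to 0.837 over the alternatives. The Nkg7 interval is narrow because its UMIs are many, and it says nothing of the spread between mice or between barcodes. In run 2 the direction was turned for Klrg1, at 16.1 CPM (3 UMIs in 14 barcodes) in PEP-WT and 78.0 CPM (96 UMIs in 92 barcodes) in PEP-619WW, and for Klre1, at 43.0 CPM (8 UMIs) and 60.9 CPM (75 UMIs). Klrk1 turned as well, with a log2 ratio of -0.16 in run 1 and 2.12 in run 2 (4 and 115 UMIs). Klrc1 held 15 of 186040 UMIs in PEP-WT and 34 of 1231291 in PEP-619WW in run 2. It was thus lower in PEP-619WW there, on too few UMIs for a call. Nkg7 was lower in PEP-619WW in run 2 as in run 1, at 1822 and 1311 CPM. The run 2 PEP-619WW level was near that of run 1 for Klrd1 (242 against 245 CPM) and Nkg7, and apart from it for Klrc1 (27.6 against 87.3 CPM), Klrg1 and Klre1.

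Other cells' RNA in this gate also moved with genotype. Summed levels in PEP-WT and PEP-619WW were 1208 and 253 CPM for erythroid genes, 1855 and 1181 CPM for neutrophil genes and 3020 and 4392 CPM for plasma cell genes, with B cell genes at 422 and 346 CPM. The myeloid list summed to 2951 and 2846 CPM, most of it Ly6c2, which was seen in 94.1% and 97.0% of these T barcodes, while its gene Lyz2 stood at 811 and 506 CPM. The 8 NK markers, of which T cells also express several, summed to 1954 and 1141 CPM. Of these, Gzma, Xcl1 and Tyrobp were called lower and Itga2 (24 and 49 UMIs) higher. Their part in the differences was not tested beyond the removal of barcodes named above, which put no condition on erythroid genes.

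**Figure D2:**
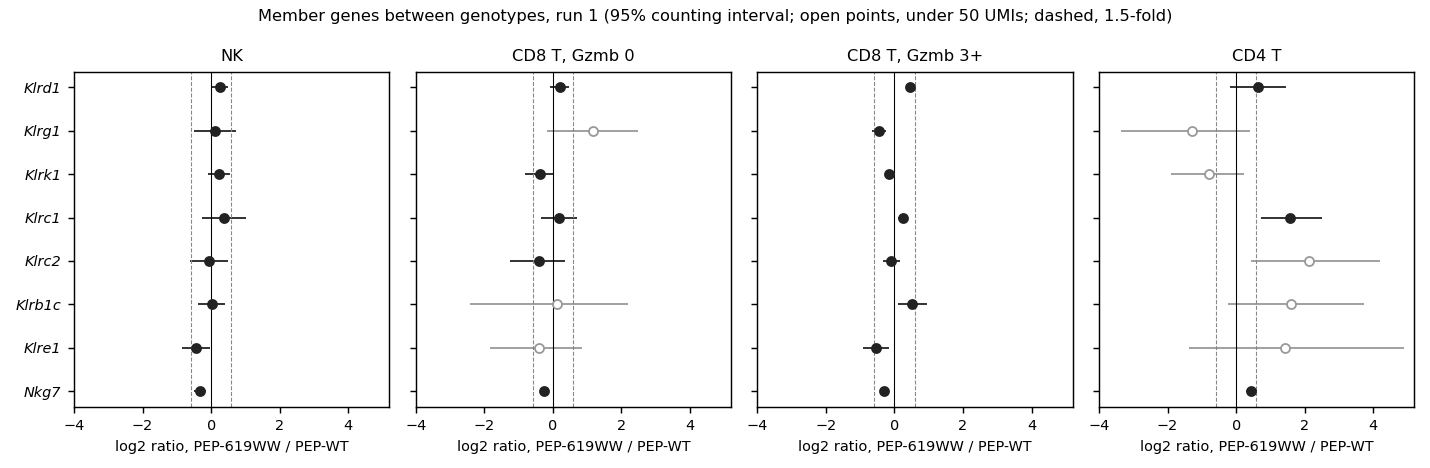
Log2 ratio of PEP-619WW over PEP-WT for the 8 members in the 4 gates of run 1, with 95% counting intervals; open points have under 50 UMIs over both libraries and dashed lines mark 1.5-fold. Filled points pass a dashed line for Klrd1 and Klrc1 in CD4 T barcodes, with 0 of 8 doing so in NK and in Gzmb-rich CD8 T barcodes.

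CD8 T barcodes without a Gzmb UMI held fewer receptor UMIs, and 5 members reached 50 UMIs. Of these, 0 were called higher and 0 lower in PEP-619WW, where 6.19% and 6.66% of 7414 genes were. Klrd1 stood at 109 CPM (379 UMIs) and 126 CPM (149 UMIs), a fold of 1.15 (0.946 to 1.40). Klrk1 was at 69.0 CPM (240 UMIs) and 53.1 CPM (63 UMIs), a fold of 0.769 (0.573 to 1.02). The genes of the CD94 partners, Klrc1 and Klrc2, had folds of 1.14 (0.787 to 1.62) and 0.753 (0.422 to 1.28). Thinning turned Klrd1 to 0.894 and Klrk1 to 1.07. Klrc1 turned to 0.730 without barcodes carrying B cell or myeloid UMIs, while Klrc2 stayed below 1 (at most 0.965). Nkg7, at 745 CPM (2591 UMIs) and 625 CPM (742 UMIs), had a fold of 0.839 (0.772 to 0.910), and a mean over barcodes that weighted each barcode equally gave 1.02. Klrg1 (13 and 10 UMIs), Klrb1c (8 and 3) and Klre1 (27 and 7) were too few for a call.

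CD4 T barcodes of run 1 were low in all receptors. At 2000 UMIs, any of the 7 was seen in 5% of the 280 barcodes of PEP-WT and in 7.94% of the 214 of PEP-619WW, against 2.61% and 2.80% of B cell barcodes. Of the 3 members with at least 50 UMIs, 2 were called higher in PEP-619WW and 0 lower, beside 8.6% and 8.27% of 7374 genes. Both rested on few molecules. Klrc1 was counted at 17 UMIs in 13 of 304 PEP-WT barcodes (7.01 CPM) and 38 UMIs in 18 of 216 PEP-619WW barcodes (21.0 CPM), a fold of 3.0 (1.65 to 5.66), and Klrd1 at 26 UMIs (10.7 CPM) and 30 UMIs (16.6 CPM), a fold of 1.55 (0.884 to 2.72). Thinning left 13 UMIs of Klrc1, with a fold of 0.818 (0.210 to 2.84), and 15 of Klrd1, with a fold of 2.62 (0.815 to 9.76). Without barcodes carrying B cell or myeloid UMIs, Klrc1 gave 2.29 (0.831 to 6.86) and Klrd1 0.913 (0.415 to 1.95).

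Nkg7 in CD4 T barcodes of run 1 went the other way from the CD8 T and NK gates. It was at 282 CPM (684 UMIs, in 29.3% of barcodes) in PEP-WT and 384 CPM (694 UMIs, in 47.2%) in PEP-619WW, a fold of 1.36 (1.22 to 1.51). Without barcodes carrying B cell or myeloid UMIs, which left 130 and 72, the log2 ratio was -0.25. In run 2, against 11 PEP-WT CD4 T and 2 PEP-WT NK barcodes, the directions were turned, with log2 ratios of -0.53 in CD4 T and 2.23 in NK barcodes. In the CD4 T gate all 4 B cell genes were lower in PEP-619WW, with summed levels of 561 and 201 CPM, while erythroid genes summed to 1514 and 44.2 CPM and neutrophil genes to 401 and 1293 CPM. Plasma cell genes summed to 3003 and 1920 CPM and the myeloid list to 1749 and 1051 CPM, with Lyz2 at 636 and 164 CPM. The other members had under 50 UMIs over both libraries: Klrg1 13 and 4, Klrk1 28 and 12, Klrc2 4 and 13, Klrb1c 4 and 9, and Klre1 2 and 4.

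Within CD8 T cells, the members were compared between barcodes with at least 3 Gzmb UMIs and barcodes with none, each library on its own. In PEP-WT 7 of 8 members were higher in Gzmb-rich barcodes and 0 lower, against 11.8% and 9.19% of 9594 genes, with a median log2 ratio of 1.03 beside 0.04. In PEP-619WW 8 of 8 were higher and 0 lower, against 11% and 8.6% of 9440 genes, with a median of 0.98 beside 0.03. Klrg1, Klrb1c and Klre1 had 3 to 27 UMIs in barcodes without Gzmb, and in PEP-619WW Klrc2 had 18 and Klrc1 45, so these passed the minimum through the Gzmb-rich gate and the counts and medians are descriptions only. Gzmb-rich barcodes were deeper, with medians of 7521 against 4865 UMIs in PEP-WT and 9170 against 6296 in PEP-619WW, so each ratio was also taken after thinning to 2000 UMIs.

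Klrg1 had the widest contrast among the members in PEP-WT, at 3.74 CPM (13 UMIs) without Gzmb and 46.5 CPM (422 UMIs) with it, a 12.4-fold difference. In PEP-619WW it was at 8.42 CPM (10 UMIs) and 33.9 CPM (350 UMIs), a 4.02-fold difference. Without barcodes carrying B cell or myeloid UMIs the PEP-WT fold was 20.8. Thinned, the log2 ratios were 4.00 (2.74 to 5.64) in PEP-WT and 1.09 (-0.09 to 2.58) in PEP-619WW, intervals that do not overlap but rest on 13 and 10 UMIs in the lower gate before thinning. The difference between the genotypes was not tested.

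Klrd1 was 1.65-fold higher in Gzmb-rich barcodes in PEP-WT and 1.95-fold higher in PEP-619WW. Klrc1 differed by 2.21-fold and 2.30-fold, with up to 3.15-fold and 5.0-fold over the 4 alternatives. Klrc2 differed by 1.43-fold and 1.78-fold, and its alternatives ran from 1.71 to 2.44 in PEP-WT and from 1.30 to 2.92 in PEP-619WW, on either side of the fold that counts as called. Klrk1 differed by 1.70-fold (up to 2.68-fold with barcodes weighted equally) and 1.98-fold and Nkg7 by 2.05-fold and 1.97-fold. Klrb1c (3.83-fold and 5.02-fold) and Klre1 (2.03-fold and 1.84-fold) had 3 to 27 UMIs in barcodes without Gzmb. After thinning, all log2 ratios were above 0 in both run 1 libraries, from 1.01 for Klrd1 to 4.00 for Klrg1 in PEP-WT and from 0.77 for Klrc2 to 2.31 for Klre1 in PEP-619WW. The Klre1 value rests on 1 thinned UMI without Gzmb, and its interval (-0.26 to 7.66) included 0, as did that of Klrc2 (-0.42 to 2.27).

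The run 2 PEP-619WW library showed this contrast for fewer members. Of 7 members tested 3 were higher in Gzmb-rich barcodes, Klrg1 (2.09-fold), Klre1 (1.94-fold) and Nkg7 (1.72-fold), and 1 was lower, Klrk1 (0.664-fold), beside 10.9% higher and 12.3% lower of 6172 genes. Klrd1 stood at 252 CPM without Gzmb and 242 CPM with it, and Klrc1 at 39.4 and 27.6 CPM. Klrd1 and Klrk1 were also higher in B cell barcodes there, at 30.2 CPM for Klrd1 in B cell barcodes against 5.12 and 7.77 CPM in run 1.

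**Figure D3:**
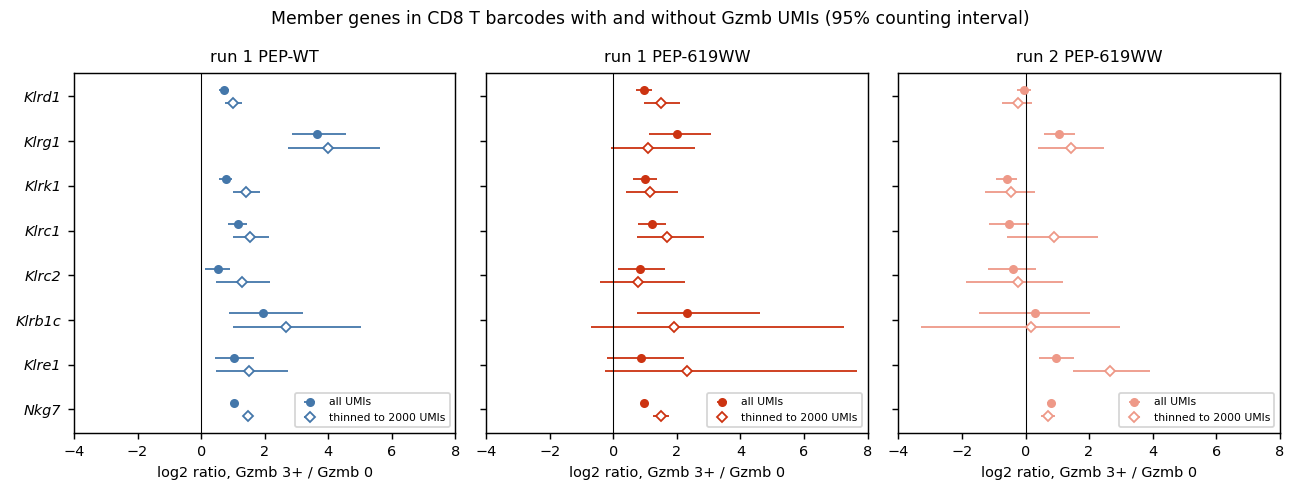
Log2 ratio of Gzmb-rich over Gzmb-negative CD8 T barcodes for each member, with all UMIs (filled) and after thinning to 2000 UMIs (open), and 95% counting intervals. All points of the run 1 panels lie right of 0, while Klrd1, Klrk1, Klrc1 and Klrc2 lie left of 0 with all UMIs in the run 2 PEP-619WW panel.

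The inhibitory and activating partners of CD94 were not in the same balance in NK and CD8 T barcodes of run 1. Of the UMIs of Klrc1 and Klrc2 together, Klrc1 made up 37.9% (29.6 to 46.7) in PEP-WT and 45.2% (34.3 to 56.5) in PEP-619WW NK barcodes, and 39.6% (35.7 to 43.6) in run 2 PEP-619WW. In Gzmb-rich CD8 T barcodes the shares were 71.9% (68.9 to 74.8), 76.4% (73.8 to 78.8) and 56.7% (43.2 to 69.4). In each of the 3 libraries the inhibitory gene's share was higher in these T barcodes than in NK barcodes, with intervals that did not overlap in run 1 and overlapped in run 2. CD8 T barcodes without Gzmb gave 62.4% (55.0 to 69.3), 71.4% (58.7 to 82.1) and 58.4% (48.2 to 68.1). Their intervals did not overlap that of NK barcodes in any of the 3 libraries. CD4 T barcodes, with few UMIs of either gene, gave 81.0% (58.1 to 94.6) and 74.5% (60.4 to 85.7) in run 1 and 42.9% (24.5 to 62.8) in run 2 PEP-619WW, the last within the interval of its NK share. Of the distinct 90-base words in the last 500 bases of Klrc1 transcripts 21.9% also occur in Klrc2, so reads from those stretches may not have been counted for either gene.

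Members were also read together in single Gzmb-rich CD8 T barcodes at 2000 UMIs each. Klrc1 was seen in 25.1% (20.3 to 30.4) of barcodes with a Klrd1 UMI and in 13.1% (10.2 to 16.5) of those without in PEP-WT, and in 25.8% (21.0 to 31.0) and 16.1% (12.7 to 20.1) in PEP-619WW. Genes that are not partners were also read: Klrk1 was seen in 35.1% with Klrd1 and 20% without in PEP-WT and in 26.8% and 20.05% in PEP-619WW, and Klrd1 in 54% with Klrg1 and 36.1% without in PEP-WT. In PEP-619WW the latter pair gave 49.3% (36.8 to 61.8) and 42.8% (39.0 to 46.7), intervals that overlapped. Klrg1 barcodes held Gzma, a granzyme of terminal effectors, in 61% (50.7 to 70.6) against 35.6% (32.0 to 39.4) of barcodes without Klrg1 in PEP-WT, and in 34.3% (23.2 to 46.9) against 20.4% (17.4 to 23.7) in PEP-619WW. Il7r, a receptor of memory precursors, was in 6% against 5.15% and 8.96% against 9.30%, with intervals that overlapped.

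Klrg1 in CD4 T barcodes was a feature of run 2. There it reached 90.2 CPM (316 UMIs, in 25.3% of 387 barcodes), against 5.36 CPM (13 UMIs) and 2.21 CPM (4 UMIs) in the run 1 genotypes. Foxp3, the regulatory T cell factor, was taken up after these values were seen. In run 2 PEP-619WW, 170 CD4 T barcodes with a Foxp3 UMI held 278 Klrg1 UMIs (136 CPM) and 217 without held 38 (26.0 CPM). At 2000 UMIs each, Klrg1 was seen in 22.6% (16.4 to 29.7) of the first and 5.68% (2.76 to 10.2) of the second, a gap that remained at equal depth. In run 1 PEP-WT, 11 barcodes with Foxp3 held 8 Klrg1 UMIs, all in 2 barcodes (47.7 CPM, 20.6 to 94.1), and 293 without held 5 (2.22 CPM, 0.719 to 5.17). Run 1 also had 16 PEP-619WW barcodes with Foxp3 holding 0, at a median of 4668 UMIs. The Clopper-Pearson upper limit for such barcodes holding a Klrg1 UMI was 20.6%, and 18.8% if a 0 is read as up to 3 counts. Neither limits the share of cells that express the gene.

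Klrk1, the NKG2D gene, was also read in myeloid barcodes of run 1. Monocyte and macrophage barcodes, gated on Csf1r, held it at 88.5 CPM (80.5 to 97.0) in PEP-WT and 67.2 CPM (59.4 to 75.7) in PEP-619WW, against 11.3 and 8.92 CPM in B cell barcodes. After removal of every barcode with a UMI of Nkg7, Klrd1 or 5 T cell genes, the level was 92.6 CPM over 556 PEP-WT and 67.1 CPM over 328 PEP-619WW barcodes. Barcodes with the macrophage gene C1qa gave 83.3 and 71.7 CPM. Klrd1 was at 8.03 and 10.7 CPM in the whole gate, near its B cell level of 5.12 and 7.77 CPM. The run 2 monocyte and macrophage barcodes held Klrk1 at 4.07 CPM in PEP-WT and 24.6 CPM in PEP-619WW. Klrd1 stood at 1.28 and 30.3 CPM in the same barcodes, above Klrk1 in PEP-619WW. After the same removal of barcodes Klrk1 was at 3.53 and 13.9 CPM. The source of this RNA was not tested.

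**Figure D4:**
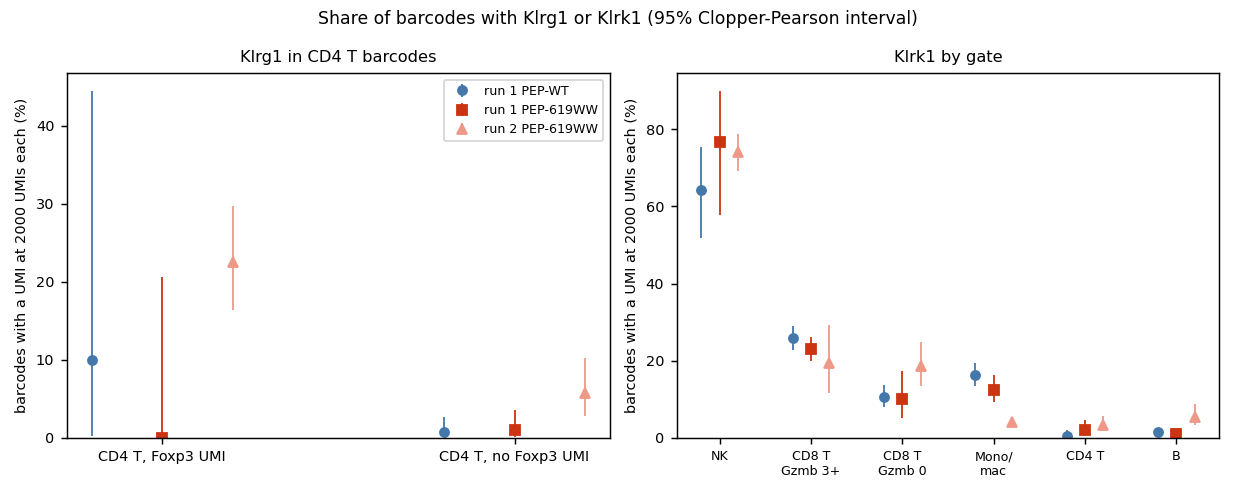
Share of barcodes with a Klrg1 UMI in CD4 T barcodes split by Foxp3 (left) and with a Klrk1 UMI in 6 gates (right), all at 2000 UMIs per barcode, with 95% Clopper-Pearson intervals. Klrg1 reaches 22.6% with Foxp3 in run 2 PEP-619WW, and Klrk1 is seen in 16.2% of run 1 PEP-WT monocyte and macrophage barcodes.

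Although NK barcodes had the highest levels, they were few, and the members differed in how much of their RNA the NK gate held. The NK gate, which took 0.520% of the PEP-WT library and 0.431% of the PEP-619WW library in run 1, held 39.2% and 28.2% of the Klrb1c UMIs and 32.7% and 28.9% of those of Klre1. It held 8.86% and 5.96% for Klrd1 and 3.46% and 2.26% for Nkg7. For the shares of this paragraph CD8 T barcodes were all those with Cd3e and Cd8b1 and without Ncr1, whatever their Gzmb count. They held 60.5% and 76.4% of Klrd1, 73.1% and 81.1% of Klrc1 and 70.1% and 79.0% of Nkg7 UMIs. In run 2 PEP-619WW the NK gate held 61.4% of Klrb1c and 52.6% of Klre1. There it also held more than CD8 T barcodes did of Klrd1 (27.5% against 12.0%), Klrc1 (42.7% against 18.6%) and Nkg7 (31.2% against 26.5%), the reverse of run 1. The shares of barcodes were turned as well. NK barcodes made up 4.23% and this CD8 T class 3.49% of run 2 PEP-619WW barcodes, against 0.431% and 11.1% in run 1 PEP-619WW.

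Over 9 gates in each run 1 library, 18 points that share libraries and depths, the genes most alike in log2(CPM + 1) among 11228 were taken for each member by Pearson's r, as a description. Klrd1 was closest to the chemokine gene Ccl5 (0.959) and to Klrc2 (0.951), Klrc1 to Ppm1j (0.973) and the granzyme gene Gzmk (0.967), and Klrc2 to Klre1 (0.964) and Camk2n1 (0.962). Klrk1 was closest to Itgax (0.960), the gene of the myeloid and effector cell integrin CD11c, and to Srgap3 (0.951). Klrg1 was closest to the protease inhibitor gene Serpinb9b (0.970) and to Arsb (0.966), Klrb1c to Klre1 (0.966) and Adamts14 (0.963), Klre1 to Klrb1c and Klrc2, and Nkg7 to Ctsw (0.982), a protease of cytotoxic lymphocytes, and Serpinb6b (0.977).

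The rest of the family was read from a list of 23 genes, of which 19 were in the tables. In NK barcodes 10 had at least 50 UMIs, and 0 were called higher and 3 lower in PEP-619WW, beside the 8.16% and 13.4% of all genes given above. The Ly49 genes with most UMIs were Klra7 (155 and 70 UMIs, 0.775-fold), Klra8 (139 and 112, 1.38-fold) and Klra4 (146 and 97, 1.14-fold), none past the fold. Of the 3 called, Klra1 went from 81 UMIs in 17 of 77 barcodes to 4 UMIs in 2 of 37, a fold of 0.0847 (0.0225 to 0.225), Klrb1f from 68 to 24 UMIs (0.605-fold), and Klri2, a partner of Klre1, from 77 to 28 UMIs (0.624-fold). These 3 were named after their values were seen. Ly49 genes are expressed by subsets of NK cells. Of the 90-base words in the last 500 bases, 0 of those of Klra1, Klra2, Klra4, Klra8, Klrb1f and Klri2 occur in another gene, and 6.57% of those of Klra7 occur in the pseudogene Klra13-ps. In Gzmb-rich CD8 T barcodes 3 were tested, 0 higher and 2 lower, beside 4.75% and 4.52% of all genes: Klra2 (161 and 104 UMIs, 0.568-fold) and Klra7 (43 and 19, 0.388-fold).

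Of 9 adaptor and phosphatase genes that carry the receptors' signals, 6 were tested in NK barcodes, with 0 higher and 1 lower (the phosphatase gene Ptpn6, 48 and 18 UMIs, 0.643-fold, named as the gene past the fold), near the 13.4% of all genes lower in that gate. The NKG2D adaptors stood at 1.02-fold for Tyrobp and 1.21-fold (0.943 to 1.54) for Hcst. In Gzmb-rich CD8 T barcodes all 9 were tested, with 0 higher and 1 lower (4.75% and 4.52% of all genes), Tyrobp, at 300 CPM in PEP-WT and 178 CPM in PEP-619WW (0.592-fold). Tyrobp is also a myeloid gene and was seen in 28.8% and 26.1% of these barcodes. Among 16 listed ligands 12 were in the tables, and in these 2 gates 2 and 4 were tested, with 0 higher and 0 lower. The Qa-1 gene H2-T23 was at 499 and 474 CPM in NK and 408 and 454 CPM in Gzmb-rich CD8 T barcodes.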

How the data were processed

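Per the design text, live CD45+ splenocytes were pooled by genotype by the authors and sequenced with 10x 3′ chemistry, v3.1 per the paper's methods. The deposited tables hold whole UMI counts per gene and barcode, made with Cell Ranger (6.0.0 and mm10 in the submitters' processing notes, another version in the methods). The 4 tables, 2 runs of 2 libraries, were kept apart. The members and gene lists were chosen with earlier results of these data known.

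Gates were set on Ncr1, Cd3e, Cd4, Cd8b1 and Gzmb, and UMIs were summed per gate and library and divided by the gate's total. Intervals, at 95%, came from scipy 1.17.1 (numpy 2.4.6, python 3.11.15). No barcode was removed, and no doublet caller was run. Leaving out the 5% of barcodes with most UMIs stood in for it. Barcodes were thinned to 2000 UMIs for shares, and shallower ones were left out (7 of 77 PEP-WT and 7 of 37 PEP-619WW NK barcodes in run 1). All members were named. Of the lists, genes with most UMIs were to be named, and those past the fold were added after their values were seen. Likeness used genes with at least 200 UMIs. The interval code was tested on simulated Poisson and binomial counts, which hold no spread between barcodes.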

Additional observations from a re-analysis of the deposited data

Results flagged for a closer look

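Nkg7, a gene of the cytotoxic granule, moved in opposite directions between genotypes in different gates of run 1. Its log2 ratio of PEP-619WW over PEP-WT was -0.32 in NK, -0.25 in Gzmb-negative CD8 T and -0.31 in Gzmb-rich CD8 T barcodes, and 0.44 in CD4 T barcodes. Each gate held 1 library per genotype, so the difference between gates was not tested. The CD4 T value turned to -0.25 without barcodes carrying B cell or myeloid UMIs, and in run 2, with 11 and 2 PEP-WT barcodes, the CD4 T value was -0.53 and the NK value 2.23.

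Barcodes with both Cd3e and Ncr1 fall in part outside the gates compared, which put no condition on Ncr1 in T barcodes. Run 2 PEP-619WW held 33 of them, 14 in the CD8 and CD4 T gates and 19 outside (median 6419 UMIs), and 18 of the 19 carried a UMI of at least 1 of the 7 receptors. Run 1 held 11 in PEP-WT, 3 of them outside, and 2 in PEP-619WW, both outside. Doublets were not called.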

How the results depend on the processing

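No paired analysis was possible because each genotype had 1 library per run. Of 329 ratios of single members under the alternatives, 251 moved by less than their counting interval. Alternatives that cannot change a ratio, such as a minimum of 20 UMIs, are part of that count. In all, 32 ratios changed sign, 18 of 301 within run 1 and 14 of 28 in run 2. The main value was within 1.5-fold for 27 of these and past it for 5, given below. Run 2, whose PEP-WT gates held 2 to 14 barcodes, gave 7 members higher in NK (median log2 ratio 1.91, beside 20.8% of genes higher and 38% lower). Gzmb-negative CD8 T barcodes had 2 higher and 1 lower (median 0.0493, beside 29.2% and 15.2% of genes). Gzmb-rich CD8 T barcodes had 2 higher, Klrg1 and Klrk1 (median 0.50, beside 17.6% of genes higher). In CD4 T barcodes run 2 had 3 of 4 higher, Klrd1, Klrg1 and Klrk1, and 0 lower (median 0.77, beside 29.9% and 12.1% of genes). All these called members reached 50 UMIs through PEP-619WW, so the counts are descriptions only. PEP-WT held 0 UMIs of Klrd1 and Klrk1 in CD4 T and 0 of Klrb1c in NK barcodes. A 0 was set to 3 UMIs, so those folds are bounds. Klrg1 held 7 UMIs in the PEP-WT CD4 T gate. In run 2 the Gzmb contrast had 1 member higher and 1 lower in PEP-WT (17.6% and 6.12% of genes), and 3 higher and 1 lower in PEP-619WW. The sign of these 5 changed there, for Klrd1 in PEP-WT (-1.26) and for Klrd1 (-0.0591), Klrk1 (-0.59), Klrc1 (-0.51) and Klrc2 (-0.41) in PEP-619WW.

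In run 1 NK barcodes without UMIs of 5 other T cell genes (21 and 5 barcodes), 1 member was tested and was lower (median -1.66), and barcodes with at least 2 Ncr1 UMIs gave 1 higher and 1 lower. The share of all genes past the fold is not given for the settings of this paragraph, so its counts are descriptions only. The median in Gzmb-negative CD8 T barcodes was 0.0345 with barcodes weighted equally and -0.0507 without the 5% deepest, and a minimum of 20 UMIs gave 1 member higher. In Gzmb-rich CD8 T barcodes 1 member was higher without barcodes carrying B cell or myeloid UMIs and 1 with at least 10 Gzmb UMIs, while 1 was lower with barcodes weighted equally and 1 with the gate opened to 1 Gzmb UMI. The 2 members higher in CD4 T barcodes became 0 after thinning, 0 without barcodes carrying B cell or myeloid UMIs (median -0.25), 0 without the 5% deepest, 1 without barcodes holding Cd8a or Ncr1, and 1 at a fold of 2. Klrc1 fell under 50 UMIs in the first 3 of these, with folds of 0.818, 2.29 and 2.14, and Klrd1 gave 2.62, 0.913 and 1.27. Without barcodes holding Cd8a or Ncr1, Klrd1 gave 2.53 on 45 UMIs, too few for a call. A minimum of 20 UMIs gave 1 lower. Without barcodes carrying B cell or myeloid UMIs, 5 of the 6 members still tested passed the Gzmb contrast in PEP-619WW, and Klrc2 (1.30-fold) did not. Thinned to 1000 UMIs, the share of barcodes with a receptor UMI in PEP-WT and PEP-619WW was 20.2% and 17.4% in Gzmb-negative CD8 T, 44.4% and 47.3% in Gzmb-rich CD8 T, and 1.99% and 4.63% in CD4 T barcodes. The causes were not tested.

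With pooled mice and 1 library per genotype, all intervals cover counting error only. NK barcodes were too few to show folds under about the width of their intervals, and counts under 50 UMIs were not called.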

Other observations

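Effector genes that are read beside the receptors differed by gate. In Gzmb-rich CD8 T barcodes of run 1, of 12 listed genes 0 were called higher and 2 lower in PEP-619WW, beside 4.75% and 4.52% of all genes: Gzma, a granzyme gene, at 1039 CPM in PEP-WT and 433 CPM in PEP-619WW (0.416-fold, 0.402 to 0.431), and S1pr5, a receptor for egress, at 84 and 36 UMIs (0.377-fold). Ccl5, the gene with most UMIs, was at 7148 and 7759 CPM. Gzmb-negative CD8 T barcodes had 5 of 11 higher and 0 lower, beside 6.19% and 6.66% of all genes, among them Ccl5 at 973 and 1847 CPM (1.90-fold) and the chemokine receptor gene Cxcr6 at 77 and 59 UMIs (2.24-fold). In this gate erythroid genes summed to 861 CPM in PEP-WT and 102 CPM in PEP-619WW, neutrophil genes to 1415 and 2995 CPM and B cell genes to 455 and 322 CPM. Plasma cell genes summed to 2679 and 3739 CPM. The myeloid list summed to 2079 and 2623 CPM, with Ly6c2, seen in 81.9% and 80.3% of these T barcodes, at 1557 and 1356 CPM and Lyz2 at 433 and 1201 CPM. Their part in the counts was not tested.

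In CD4 T barcodes 5 of 9 effector genes were called higher in PEP-619WW and 0 lower, beside 8.6% and 8.27% of all genes and the shifts of other cells' RNA given above for this gate, with Ccl5 at 623 and 1300 CPM (2.09-fold). Gzma, at 25 and 210 UMIs, rested on few barcodes, since 1 PEP-619WW barcode held 140 of them. In NK barcodes 7 effector genes were tested, 0 higher and 1 lower beside 8.16% and 13.4% of all genes (Zeb2, a factor of NK maturation, at 79 and 27 UMIs, 0.586-fold), and Gzma was at 11441 and 11816 CPM. Each list was chosen with earlier results of these data known, and the values are descriptions of single libraries.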
